A study of Mus musculus with 36 samples.

Results

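The genes described here encode the pore-forming and auxiliary subunits of potassium channels and of the hyperpolarization-activated, cyclic nucleotide-gated (HCN) channels. They were chosen by name, as protein-coding genes whose symbol starts with Kcn or Hcn, and kept where their mean was at least 0.5 RPKM (reads per kilobase of gene, scaled to the depth of the library) in at least 1 of 6 groups. Of 98 genes by name, 83 were kept and 15 fell below the floor, in a table of 31554 genes of which 20070 are protein coding. The 83 fall into 21 subfamilies by the stem of their symbol, and 67 of them lay above the floor in all 6 groups. Kcnb2 has 2 rows in the table, ENSMUSG00000090498 and ENSMUSG00000092083, so its reads may be split between them and both are uncertain. Just inside the floor stood Kcne4, Kcnj13, Kcne2 and Kcnh8, whose highest group means were 0.543, 0.546, 0.695 and 0.715 RPKM. Just outside stood Kcnq1, Kcnn4, Kcnk5 and Kcnk7 at 0.488, 0.373, 0.313 and 0.225 RPKM. The places of Kcne2 and Kcnj13 rest on 1 library, number 27 of PAG sham. It held 242 reads of Kcne2, against 7 to 15 in the other 5, and 150 reads of Kcnj13, against 1 to 6. Their PAG sham means were 0.695 ± 1.33 and 0.546 ± 1.17 RPKM (SD, n = 6). Without that library, an alternative chosen after the data were seen, both lay below the floor, with highest group means of 0.391 and 0.266 RPKM, and 81 genes were kept.

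RNA sequencing covered the nucleus accumbens (NAc), prefrontal cortex (PFC) and periaqueductal grey (PAG) of adult C57BL/6 mice, all male. The mice had either spared nerve injury (SNI) of the sciatic nerve, which is widely used to model chronic neuropathic pain, or sham surgery, and all tissue was taken 2.5 months later. Each of the 6 groups, SNI and sham in each region, had 6 libraries. Each library was made from pooled, polyadenylated RNA, and the labels do not say how many mice stand behind a library or whether regions share mice, so p-values measure the spread between libraries, which may be partly technical.

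Potassium channels let potassium ions leave the cell and so hold the resting potential, end action potentials and set how readily a neuron fires again. HCN channels pass a mixed cation current at negative potentials and help set rhythmic firing and the resting membrane potential. Voltage-gated, calcium-activated, inwardly rectifying and tandem-pore channels share a pore loop with a short signature that selects potassium, while auxiliary subunits (Kcnab, Kcne, Kcnip and Kcnmb) bind to the pore-forming ones and change their gating or traffic.

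The coding sequences split along that line under the pattern searched. The signature was searched in the translated longest coding sequence of each gene in GENCODE M21 (mouse build GRCm38, the same as mm10), as 5 codons in a row for threonine, serine or cysteine, then valine, isoleucine, leucine or threonine, then glycine, then tyrosine or phenylalanine, then glycine. It was found in 69 of the 82 channel genes with a coding sequence there, and in 192 of 18974 protein-coding genes of the table (1.01%). The 13 channel genes without it were the 13 members of Kcnab, Kcne, Kcnip and Kcnmb. The pattern allowed cysteine in first place, as in Hcn3 below, and so took in HCN genes, whose current is mixed. The split thus depends in part on how the pattern was drawn. It occurred more than once in 8 genes, which were Hcn4 and 7 of the 9 Kcnk genes, whose subunits carry a pair of pore loops. The 75 coding bases around the signature, within 1 exon each, are given here for 4 genes that were higher and 4 that were lower after SNI in PAG, with the genes in that order. Capitals mark the 5 signature codons, and the strand is the coding one.

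Kcnt1 (chr2:25894337-25894411, plus strand): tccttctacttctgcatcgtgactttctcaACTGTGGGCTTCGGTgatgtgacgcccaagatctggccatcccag
Kcng1 (chr2:168262611-168262685, minus strand): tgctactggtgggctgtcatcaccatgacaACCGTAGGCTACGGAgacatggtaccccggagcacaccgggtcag
Kcnh2 (chr5:24325525-24325599, minus strand): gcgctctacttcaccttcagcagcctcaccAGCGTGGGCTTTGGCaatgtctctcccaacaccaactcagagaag
Hcn3 (chr3:89150976-89151050, minus strand): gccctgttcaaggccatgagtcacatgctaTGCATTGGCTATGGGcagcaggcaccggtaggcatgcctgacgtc
Kcnj16 (chr11:111024874-111024948, plus strand): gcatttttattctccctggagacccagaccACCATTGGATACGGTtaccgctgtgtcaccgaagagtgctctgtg
Kcns3 (chr12:11091545-11091619, minus strand): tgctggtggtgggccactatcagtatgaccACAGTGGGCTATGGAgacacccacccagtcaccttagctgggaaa
Kcna4 (chr2:107296465-107296539, plus strand): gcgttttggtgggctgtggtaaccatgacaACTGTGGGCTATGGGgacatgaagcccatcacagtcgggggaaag
Kcnh7 (chr2:62777313-62777387, minus strand): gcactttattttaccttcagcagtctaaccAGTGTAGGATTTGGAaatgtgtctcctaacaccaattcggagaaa

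Libraries held 27.6 to 64.9 M (mega) assigned reads. Tissue markers went with the region labels. The summed level of 9 markers of medium spiny neurons, the main cell of the accumbens, was 1275 to 1971 RPKM in NAc SNI and 1324 to 1965 RPKM in NAc sham libraries, and stayed at or below 133 RPKM in every PFC and PAG library. A list of 6 midbrain neuron genes lay between 124 and 147 RPKM in PAG SNI and between 134 and 147 RPKM in PAG sham libraries. NAc libraries held uneven amounts of cortical RNA. The summed level of 7 genes of cortical excitatory neurons ran from 4.65 to 235 RPKM in NAc SNI and from 3.9 to 178 RPKM in NAc sham libraries, against 628 to 775 RPKM in PFC SNI and 670 to 718 RPKM in PFC sham libraries. In bulk tissue, fewer cells of a type and less RNA per cell cannot be told apart. The strand used in counting is not given in the sources used here, so reads from a gene and an overlapping or antisense partner cannot be told apart.

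Channel genes differed widely between the regions in sham mice. A gene counted as different where its adjusted p was under 0.05 and its fold reached 2. Between NAc and PFC 23 of 83 channel genes differed (27.7%, against 6.8% of all genes tested), 8 higher and 15 lower in NAc, where 3.34% and 3.46% of all genes were. Between NAc and PAG 35 differed (42.2%, against 13% of all genes), 18 higher and 17 lower in NAc, where 6.4% and 6.62% of all genes were. Between PFC and PAG 33 differed (39.8%, against 15% of all genes), 22 higher and 11 lower in PFC, where 7.51% and 7.54% of all genes were. The floor favours differences in genes kept for 1 high group. The same counts were therefore taken over genes above the floor in all 6 groups. There 20, 27 and 22 of 67 channel genes passed (29.9%, 40.3% and 32.8%, against 5.53%, 10.4% and 12.4% of 14043 genes). Over the 83 genes, the highest sham mean was in NAc for 21, in PFC for 30 and in PAG for 32. Slc17a7 loads glutamate into vesicles in cortical neurons. An alternative chosen after the data were seen left out the 6 NAc libraries, 4 sham and 2 SNI, with more than 50 RPKM of it. It gave 27, 36 and 33 genes, with no share of all genes beside them, and its NAc values rest on few sham libraries.

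**Figure D1:**
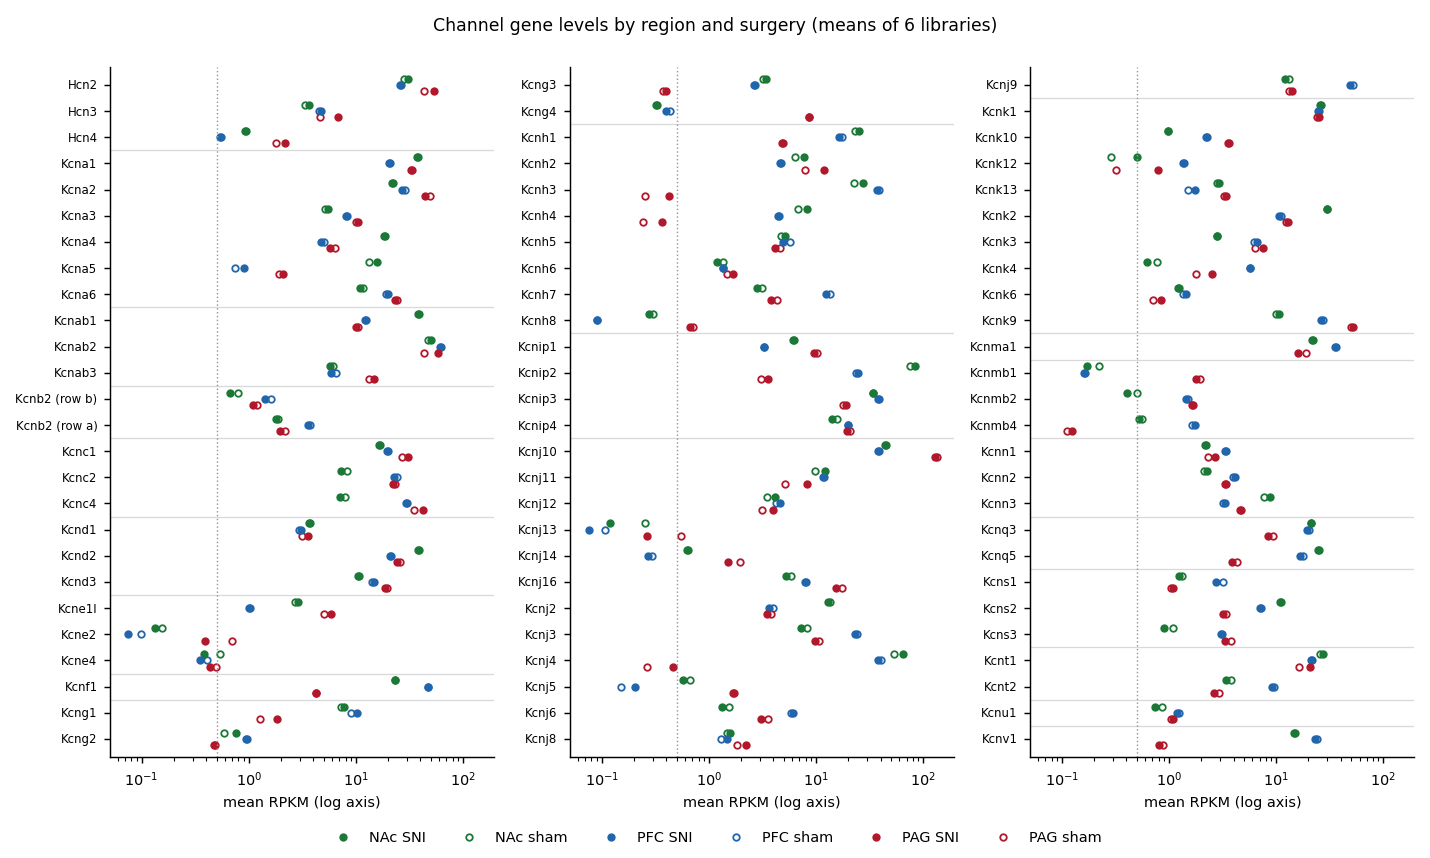
Mean RPKM (log axis) of each of 78 channel genes in NAc, PFC and PAG, with filled symbols for SNI and open symbols for sham, and the dotted line at the floor of 0.5 RPKM. SNI and sham symbols of a region lie close together for most genes, while regions lie far apart for genes such as Kcnj4, with 53.7 RPKM in NAc sham and 0.267 RPKM in PAG sham.

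Inward rectifiers, which hold the resting potential near that of potassium, gave the widest difference. Kcnj4 (ENSMUSG00000044216, chr15:79483714-79505241, minus strand), a strong inward rectifier of forebrain neurons, had 37 to 66.9 RPKM in NAc sham libraries (median 56.8), 25.3 to 47.9 RPKM in PFC sham libraries (median 44.8) and 0.158 to 0.351 RPKM in PAG sham libraries (median 0.285). Every NAc and PFC sham library lay far above every PAG sham library. The PAG sham libraries held 15 to 28 reads of it each. The log2 fold change of Kcnj4 was 6.12 for NAc over PAG (SE 0.17, limma adjusted p = 9.17e-26) and 5.71 for PFC over PAG (SE 0.17, adjusted p = 6.60e-25). Kcnj2, another strong inward rectifier, averaged 13.5 ± 2.6 RPKM in NAc, 3.95 ± 0.479 RPKM in PFC and 3.83 ± 0.364 RPKM in PAG (SD, n = 6 sham libraries, as for every value marked ± between regions). The G-protein-gated subunits took another order. Kcnj9 averaged 13.3 ± 2.31 RPKM in NAc, 51.6 ± 4.09 RPKM in PFC and 13.1 ± 0.556 RPKM in PAG, and Kcnj3 and Kcnj6 were also lower in NAc than in PFC (-1.55 and -1.71 on the log2 scale). Kcnj5, a further subunit of that kind, was lower in PFC than in PAG (0.152 ± 0.0484 against 1.73 ± 0.0899 RPKM). Kcnj10 (ENSMUSG00000044708, chr1:172341210-172374085, plus strand), the inward rectifier of astrocytes and oligodendrocytes, had 38.4 to 58 RPKM in NAc sham libraries (median 41.4), 34 to 40.6 RPKM in PFC sham libraries (median 38.1) and 127 to 140.3 RPKM in PAG sham libraries (median 134). The PAG range lay above the other two throughout, with a log2 fold change of -1.59 for NAc and -1.81 for PFC against PAG. Kcnj16, which assembles with Kcnj10, averaged 5.84 ± 0.799 RPKM in NAc, 8.02 ± 0.397 RPKM in PFC and 17.6 ± 0.965 RPKM in PAG. Summed levels of 8 oligodendrocyte markers in sham libraries were 737 to 832 RPKM in NAc, 248 to 921 RPKM in PFC and 1204 to 1392 RPKM in PAG. Those of 6 astrocyte markers overlapped, at 461 to 509, 445 to 482 and 448 to 497 RPKM in the same order. Of these, Aqp4, Gja1 and Aldh1l1 had their highest sham mean in PAG, Slc1a2 and Slc1a3 their lowest, and Gfap lay between. The part of glial cell content in the glial channel genes was not tested. Kcnj14 averaged 0.641 ± 0.145 RPKM in NAc, 0.295 ± 0.0616 RPKM in PFC and 1.94 ± 0.615 RPKM in PAG.

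Among the Kcna (Shaker) delayed rectifier and A-type channels, Kcna5 (ENSMUSG00000045534, chr6:126532551-126535412, minus strand) had 10.8 to 15.5 RPKM in NAc sham libraries (median 12.9), 0.651 to 0.84 RPKM in PFC sham libraries (median 0.742) and 1.76 to 2.15 RPKM in PAG sham libraries (median 1.82). NAc sham libraries did not overlap with either other region (log2 fold change 3.46, SE 0.13, adjusted p = 4.57e-22 against PFC; 2.51 on the log2 scale against PAG). Kcna4, an A-type subunit, averaged 18.7 ± 2.62 RPKM in NAc, 5.04 ± 0.642 RPKM in PFC and 6.41 ± 0.248 RPKM in PAG. Kcna2, the subunit of the group with the highest mean over the 6 groups, ran the other way, at 21.7 ± 3.2 RPKM in NAc, 28.4 ± 4.82 RPKM in PFC and 49.4 ± 2.14 RPKM in PAG. Their cytoplasmic beta subunit genes split as well. Kcnab1, which speeds inactivation, averaged 38.1 ± 3.92 RPKM in NAc, 12.2 ± 0.92 RPKM in PFC and 10.6 ± 0.645 RPKM in PAG, while Kcnab2 averaged 47.5 ± 6.88, 62.8 ± 7.12 and 43.2 ± 4.52 RPKM in the same order and passed in no region comparison. Kcnip2, a calcium sensor of the KChIP family that assembles with Kcnd channels, averaged 75.3 ± 11.5 RPKM in NAc, 23.5 ± 1.98 RPKM in PFC and 3.09 ± 0.299 RPKM in PAG, and was higher in NAc than in PAG by 4.39 on the log2 scale (SE 0.097, adjusted p = 8.45e-29). Its partner Kcnd2 varied far less, as described below. The Kcnc (Shaw) channels of fast-firing neurons held Kcnc4, which was lower in NAc than in PAG. It averaged 7.86 ± 3.17 RPKM in NAc, 29.7 ± 2.68 RPKM in PFC and 35 ± 2.56 RPKM in PAG. Kcnc1, of the same group, passed in no region comparison, with 16.5 ± 1.43 RPKM in NAc, 19.9 ± 1.55 RPKM in PFC and 27.1 ± 1.06 RPKM in PAG.

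The modifier subunits of Kcnf, Kcng, Kcns and Kcnv form no channel alone and change Kcnb channels when they assemble with them. Kcnf1 averaged 23.2 ± 1.32 RPKM in NAc, 46.9 ± 2.77 RPKM in PFC and 4.21 ± 0.178 RPKM in PAG. Kcnv1 averaged 14.9 ± 1.4 RPKM in NAc, 24.1 ± 3.75 RPKM in PFC and 0.874 ± 0.0591 RPKM in PAG. Kcng4 (ENSMUSG00000045246, chr8:119623854-119635680, minus strand) had the opposite order, with 0.225 to 0.469 RPKM in NAc sham libraries (median 0.305), 0.291 to 0.611 RPKM in PFC sham libraries (median 0.437) and 6.24 to 12.3 RPKM in PAG sham libraries (median 7.94). Each PAG sham library held many times the Kcng4 level of any NAc or PFC sham library (log2 fold change -3.44, SE 0.14, adjusted p = 3.34e-21 for NAc over PAG; -3.25 on the log2 scale for PFC over PAG). Kcns2 averaged 11.1 ± 0.634, 7.15 ± 0.685 and 3.38 ± 0.24 RPKM, and Kcng1 averaged 7.21 ± 1.25, 8.92 ± 1.5 and 1.29 ± 0.133 RPKM in NAc, PFC and PAG.

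The Kcnh (ether-a-go-go) channels also differed widely. Kcnh3 (ENSMUSG00000037579, chr15:99224861-99242817, plus strand) had 15.7 to 29 RPKM in NAc sham libraries (median 22.2), 22.3 to 50.8 RPKM in PFC sham libraries (median 42.2) and 0.196 to 0.428 RPKM in PAG sham libraries (median 0.224). PAG sham libraries stayed below the floor while all NAc and PFC sham libraries were well above it (log2 fold change 5.66, SE 0.19, adjusted p = 1.86e-23 for PFC over PAG; 4.91 on the log2 scale for NAc over PAG). Kcnh4 averaged 6.78 ± 1.5 RPKM in NAc, 4.39 ± 1.17 RPKM in PFC and 0.242 ± 0.0414 RPKM in PAG. Kcnh7 averaged 3.15 ± 1.05 RPKM in NAc, 13.5 ± 2.57 RPKM in PFC and 4.29 ± 0.243 RPKM in PAG, the highest being PFC. The Kcnq genes encode the M current, a slow brake on firing. Of these, Kcnq3 averaged 21.2 ± 2.36 RPKM in NAc and 20.2 ± 2.81 RPKM in PFC and was lower in PAG, at 9.31 ± 0.469 RPKM.

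Background potassium conductance comes from the tandem-pore Kcnk channels. Kcnk9 (ENSMUSG00000036760, chr15:72501089-72546340, minus strand), an acid-sensitive member, had 6.83 to 13.3 RPKM in NAc sham libraries (median 10.1), 23 to 31.8 RPKM in PFC sham libraries (median 27.3) and 43.9 to 53 RPKM in PAG sham libraries (median 50.2). The ranges of the 3 regions did not overlap (log2 fold change -2.27, SE 0.11, adjusted p = 7.88e-19 for NAc over PAG). Kcnk2, a stretch- and lipid-sensitive member, was higher in NAc, at 29.5 ± 3.14 RPKM against 11 ± 0.496 RPKM in PFC and 12.3 ± 0.689 RPKM in PAG. Kcnk4, its relative, was lower there, at 0.779 ± 0.255 RPKM against 5.74 ± 1.07 RPKM in PFC and 1.78 ± 0.263 RPKM in PAG. Of the calcium- and sodium-activated channels, Kcnma1, the large-conductance pore, averaged 21.9 ± 2.68, 36 ± 4.88 and 18.8 ± 0.701 RPKM in NAc, PFC and PAG. Its auxiliary subunit Kcnmb1 averaged 0.221 ± 0.0682, 0.161 ± 0.0508 and 1.96 ± 0.241 RPKM in the same order, and Kcnmb2 averaged 0.497 ± 0.0766, 1.49 ± 0.096 and 1.67 ± 0.155 RPKM. Kcnt1, a sodium-activated channel, averaged 25.4 ± 4.03, 21 ± 4.87 and 16.3 ± 1.18 RPKM. Kcnu1, the sperm channel of this branch, was at 0.867 ± 0.134, 1.23 ± 0.109 and 1.03 ± 0.0835 RPKM. Kcne1l, an auxiliary subunit, averaged 2.73 ± 0.34, 1.04 ± 0.24 and 5.06 ± 0.458 RPKM and was lower in PFC than in either other region. Hcn2, the HCN gene with the highest mean, averaged 28.2 ± 4.21 RPKM in NAc, 26.5 ± 3.78 RPKM in PFC and 43.4 ± 2.94 RPKM in PAG, with no pair of regions past a 2-fold difference.

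**Figure D2:**
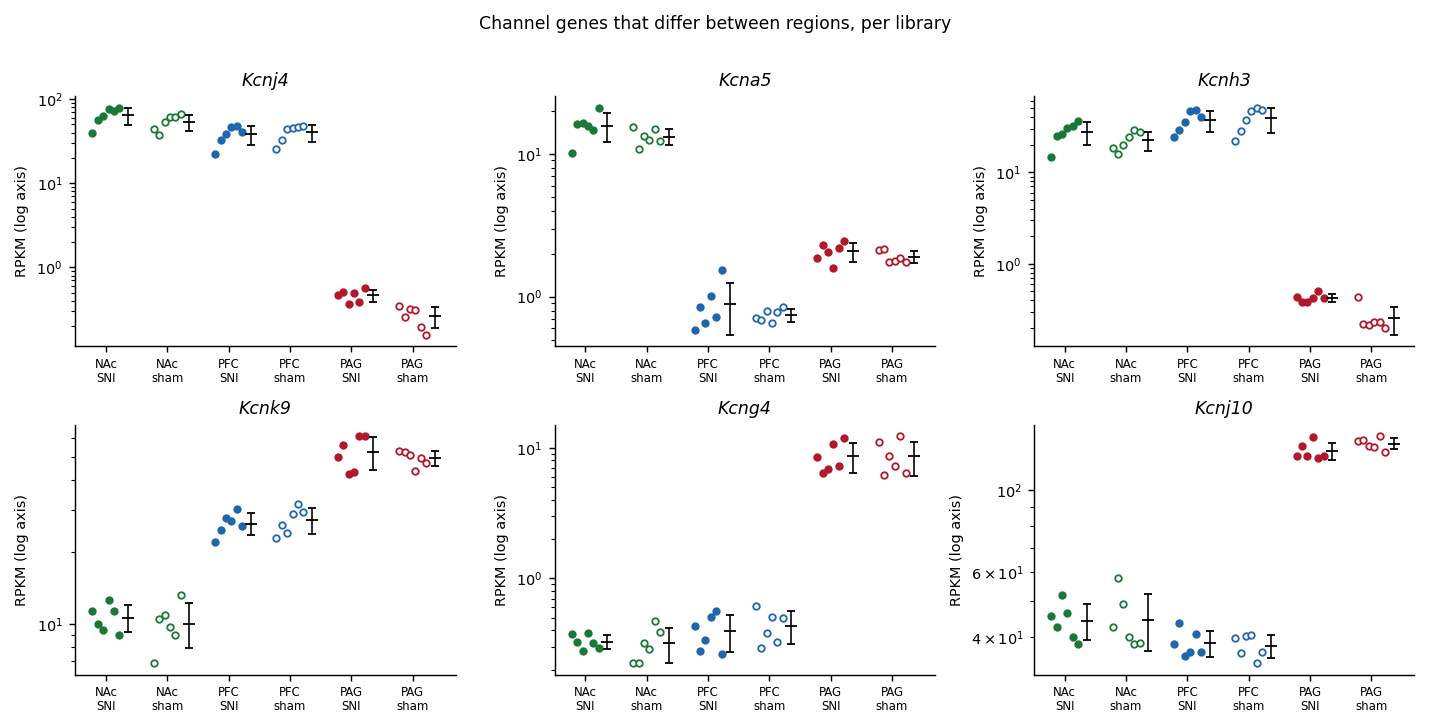
RPKM (log axis) per library of Kcnj4, Kcna5, Kcnh3, Kcnk9, Kcng4 and Kcnj10 in SNI (filled) and sham (open) libraries of each region, with the mean and SD of each group of 6 as a bar. Kcnj4 and Kcnh3 are low in PAG alone, Kcna5 is high in NAc, and Kcng4 and Kcnj10 are high in PAG. Kcnk9 is lowest in NAc and highest in PAG, with PFC between them.

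Placed by region pattern, in a grouping made after the values were seen, 6 channel genes were higher in sham NAc than in both other regions (1.81% of all genes were). They were Kcna4, Kcna5, Kcnab1, Kcnip2, Kcnj2 and Kcnk2. Another 8 were higher in PFC than in both others (2.04% of all genes), namely Kcnh7, Kcnj3, Kcnj9, Kcnk12, Kcnk4, Kcnmb4, Kcns1 and Kcnt2. Another 6 were higher in PAG than in both others (4.58% of all genes), among them Kcng4, Kcnj10, Kcnj14, Kcnj16 and Kcnmb1. A set of 12 was higher in NAc and in PFC than in PAG (3.5% of all genes), and among its genes were the modifiers Kcnf1, Kcng1, Kcng3 and Kcnv1, and also Kcnh1, Kcnh3, Kcnh4, Kcnip2, Kcnj4, Kcnq3 and Kcnq5. Lower in NAc than in both others were 7 genes (0.751% of all genes), Kcnc2, Kcnc4, Kcnj6, Kcnk3, Kcnk9, Kcnmb2 and Kcns3, and Kcne1l was lower in PFC than in both others (1.07% of all genes). Over the 67 channel genes above the floor in all 6 groups, where none was kept for 1 high group, the counts in the same order were 6, 6, 3, 8, 6 and 1, against 1.32%, 1.53%, 2.76%, 3.38%, 0.719% and 0.897% of all such genes. The regions differed in cell makeup as well, so these patterns cannot be told apart from the mix of cells in each tissue.

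Kcnn3, Hcn3 and Kcnd2 mark the small-conductance calcium-activated, HCN and A-type channels. Kcnn3 (ENSMUSG00000000794, chr3:89520164-89675132, plus strand), an SK channel that shapes the afterhyperpolarization, had in NAc, PFC and PAG 8.79 ± 1.06, 3.3 ± 0.419 and 4.58 ± 0.899 RPKM in SNI and 7.61 ± 0.483, 3.19 ± 0.281 and 4.67 ± 0.304 RPKM in sham libraries. Its order was NAc above PAG above PFC, with no overlap of sham libraries between neighbours (log2 fold change 1.14, SE 0.09, adjusted p = 5.64e-13 for NAc over PFC; 0.65 and -0.49 on the log2 scale for NAc and PFC over PAG). Hcn3 (ENSMUSG00000028051, chr3:89146074-89160196, minus strand), an HCN subunit, had 3.62 ± 0.745, 4.68 ± 0.86 and 6.76 ± 0.959 RPKM in SNI and 3.33 ± 0.629, 4.56 ± 1.13 and 4.63 ± 0.59 RPKM in sham libraries. Its sham levels in PFC and PAG did not differ beyond their spread (log2 fold change -0.043, SE 0.14, adjusted p = 0.793), and NAc overlapped with both. Kcnd2 (ENSMUSG00000060882, chr6:21215503-21729805, plus strand), the main A-type channel of dendrites, had 38.1 ± 1.59, 21 ± 0.731 and 24.1 ± 0.894 RPKM in SNI and 38.8 ± 3.21, 21.4 ± 2.26 and 25.9 ± 0.494 RPKM in sham libraries. Its order was NAc above PAG above PFC, with no overlap of sham libraries between neighbours, but no pair of regions reached a 2-fold difference (0.84, 0.57 and -0.27 on the log2 scale for NAc over PFC, NAc over PAG and PFC over PAG).

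In NAc, no channel gene passed the test of SNI against sham. Of the 75 channel genes that averaged 0.5 RPKM or more over the 12 libraries, 0 passed an adjusted p under 0.05 with limma, as did 0 of 15264 genes (0%), and 0 passed with voom on the recovered reads. At an unadjusted p under 0.05 stood 1 of 75, against 4.32% of all genes. That gene was Kcnn3, with 7.08 to 10.3 RPKM in NAc SNI libraries (median 8.94) against 6.75 to 7.98 RPKM in NAc sham libraries (median 7.8). The groups overlapped, and 5 of 6 SNI libraries lay above the sham median (log2 fold change 0.19, SE 0.075, adjusted p = 0.78; unadjusted p = 0.0255). The next smallest p-values belonged to Kcnip4 (14.1 ± 1.48 against 15.7 ± 1.37 RPKM), Kcnj12 (4.13 ± 0.692 against 3.5 ± 0.28 RPKM) and Kcng2 (0.763 ± 0.168 against 0.59 ± 0.121 RPKM), which all missed the threshold at the same adjusted p. The log2 fold changes of Hcn3 and Kcnd2 were 0.10 and -0.021. The median over channel genes was 0.0032, against -0.025 over all genes, with 40 of 75 above 0.

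By the median over genes, NAc was also the region where channel genes varied most between the libraries of a group. Over genes with at least 2 RPKM, the median coefficient of variation of a channel gene was 13.2% in NAc SNI and 13.5% in NAc sham, 10.9% in PFC SNI and 11.3% in PFC sham, and 9.29% in PAG SNI and 5.61% in PAG sham. The widest spread was that of Kcnh7 in NAc SNI, at 64.4%. Library 7 of NAc SNI, chosen after its values were seen, held 6.37 RPKM of Kcnh7, 15.8 of Kcnj3, 12.3 of Kcnc2 and 11.5 of Kcnc4, all genes with more RNA in PFC than in NAc. It also had the highest Slc17a7 of the NAc libraries, 178 RPKM, against 2.53 to 101 RPKM in the other NAc SNI and 1.59 to 139 RPKM in NAc sham libraries. The part of cortical RNA in these values was not tested.

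In PFC, no channel gene passed the test either. Again 0 of 75 passed an adjusted p under 0.05 with limma, as did 0 of 15192 genes (0%), and 0 passed with voom. At an unadjusted p under 0.05 stood 1 of 75, against 1.45% of all genes. That gene was Kcns1, a modifier subunit, with 2.28 to 3.43 RPKM in PFC SNI libraries (median 2.73) against 2.94 to 3.51 RPKM in PFC sham libraries (median 3.11). The groups overlapped, with 5 of 6 SNI libraries below the sham median (log2 fold change -0.19, SE 0.081, adjusted p = 1; unadjusted p = 0.0372). Kcnj8, a vascular ATP-sensitive subunit, averaged 1.47 ± 0.215 RPKM in SNI and 1.3 ± 0.192 RPKM in sham libraries. Kcng1 averaged 10.3 ± 2.25 RPKM in SNI and 8.92 ± 1.5 RPKM in sham libraries, and the Kcnb2 row ENSMUSG00000090498 1.43 ± 0.226 and 1.62 ± 0.317 RPKM. Kcnn3, Hcn3 and Kcnd2 had log2 fold changes of 0.039, 0.046 and -0.025. The median over channel genes was -0.024, against 0.0030 over all genes, with 27 of 75 above 0.

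In PAG, 16 of 75 channel genes rose and 7 fell after SNI at an adjusted p under 0.05. These shares, 21.3% and 9.33%, lay near or below those of all genes, of which 21.5% rose and 13.7% fell (35.2% of 15592 in all). The count is therefore no result about channel genes, and the values below describe which of them moved. With quantile scaling between libraries 14 rose and 13 fell, while 6940 of all 15592 genes passed, 2920 of them higher. Under median-of-ratios scaling the median of all genes moved by less than 0.1 on the log2 scale. SNI and sham libraries did not overlap for 12 of 75 channel genes, against 16.9% of all genes. The median log2 fold change was 0.016 over channel genes and -0.019 over all genes, with 40 of 75 above 0.

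The ATP-sensitive channel gene Kcnj11 (ENSMUSG00000096146, chr7:46093953-46100764, minus strand), whose subunit closes when ATP is plentiful, had the largest log2 fold change of those that rose on the log2(RPKM + 0.5) scale, which understates low genes. By the ratio of group means, SNI over sham, Kcnk12 stood higher, at 2.45, against 1.62 for Kcnj11. Kcnj11 stood at 6.52 to 10.8 RPKM in PAG SNI libraries (median 8.09), against 3.93 to 6.64 RPKM in PAG sham libraries (median 4.89). All 6 SNI libraries lay above the sham median, though the lowest SNI library lay just below the highest sham one (log2 fold change 0.65, SE 0.13, adjusted p = 0.0014). Kcnj12, a strong inward rectifier, also rose, with 3.94 ± 0.494 RPKM in SNI and 3.15 ± 0.242 RPKM in sham libraries (log2 fold change 0.28, adjusted p = 0.0083). Kcnj16 (ENSMUSG00000051497, chr11:110968033-111027968, plus strand), the glial partner of Kcnj10, fell. It stood at 14.6 to 16.2 RPKM in PAG SNI libraries (median 15.3), against 16.7 to 19.4 RPKM in PAG sham libraries (median 17.4). No SNI library reached the lowest sham library (log2 fold change -0.19, SE 0.041, adjusted p = 0.00283). Kcnj10 itself missed the threshold, with 128 ± 6.65 RPKM in SNI and 134 ± 4.83 RPKM in sham libraries. In all, 2 of 11 Kcnj genes tested rose and 1 fell.

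Of the Kcnh genes, 1 of 6 rose and 1 fell. Kcnh2 (ENSMUSG00000038319, chr5:24319589-24351604, minus strand), the channel known as hERG in humans, stood at 10.1 to 15.7 RPKM in PAG SNI libraries (median 11.4), against 7.06 to 9.17 RPKM in PAG sham libraries (median 7.81). Every SNI library lay above every sham library (log2 fold change 0.54, SE 0.092, adjusted p = 6.05e-04). Kcnh7, a relative of the same branch, fell, with 3.81 ± 0.239 RPKM in SNI and 4.29 ± 0.243 RPKM in sham libraries and no overlap (log2 fold change -0.15, SE 0.048, adjusted p = 0.0254). Among the HCN genes Hcn3 rose. It stood at 5.65 to 8.33 RPKM in PAG SNI libraries (median 6.87), against 3.71 to 5.49 RPKM in PAG sham libraries (median 4.55), without overlap (log2 fold change 0.50, SE 0.092, adjusted p = 0.00104). Hcn2 rose as well, with 53.3 ± 7.06 RPKM in SNI and 43.4 ± 2.94 RPKM in sham libraries (log2 fold change 0.29, SE 0.076, adjusted p = 0.0111), with some overlap.

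Of the Kcnc genes, Kcnc4 had the smallest p-value of all channel genes in PAG, with 40.2 to 44 RPKM in PAG SNI libraries (median 43.2), against 31.3 to 38.5 RPKM in PAG sham libraries (median 34.6), and no overlap (log2 fold change 0.29, SE 0.045, adjusted p = 3.48e-04). In 1 model of all 36 libraries, at the same fold change, its adjusted p was 0.302. Kcnc1 rose too, by 0.17 on the log2 scale. Of 3 beta subunit genes Kcnab2 (ENSMUSG00000028931, chr4:152390742-152477871, minus strand) rose, with 51.6 to 68.5 RPKM in PAG SNI libraries (median 57.9), against 38.5 to 50.8 RPKM in PAG sham libraries (median 42.6), and no overlap (log2 fold change 0.44, SE 0.081, adjusted p = 0.00112). Of the A-type Kcnd genes, Kcnd1 rose by 0.16 on the log2 scale and Kcnd2 fell. Kcnd2 stood at 22.9 to 24.9 RPKM in PAG SNI libraries (median 24.3), against 25.3 to 26.6 RPKM in PAG sham libraries (median 25.8). The fall was small and the groups did not overlap (log2 fold change -0.10, SE 0.03, adjusted p = 0.0177). None of the 4 Kcnip genes that assemble with Kcnd2 passed. Of 6 Kcna genes none rose and Kcna4 fell, with 5.67 ± 0.487 RPKM in SNI and 6.41 ± 0.248 RPKM in sham libraries (log2 fold change -0.17, SE 0.051, adjusted p = 0.0216).

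Of 9 Kcnk genes 3 rose. Kcnk12 had a large fold change at a low level, with 0.434 to 1.54 RPKM in PAG SNI libraries (median 0.679), against 0.18 to 0.476 RPKM in PAG sham libraries (median 0.319) and overlap between the groups (log2 fold change 0.61, SE 0.15, adjusted p = 0.00791). Kcnk4, a mechanosensitive member, averaged 2.53 ± 0.278 RPKM in SNI and 1.78 ± 0.263 RPKM in sham libraries (log2 fold change 0.41, SE 0.08, adjusted p = 0.00145). Kcnk3, an acid-sensitive member, averaged 7.53 ± 0.489 RPKM in SNI and 6.36 ± 0.356 RPKM in sham libraries (log2 fold change 0.23). Among the modifiers, Kcng1 rose (1.83 ± 0.165 RPKM in SNI and 1.29 ± 0.133 RPKM in sham libraries; log2 fold change 0.38, SE 0.065, adjusted p = 5.77e-04) and Kcns3 fell. Kcns3 (ENSMUSG00000043673, chr12:11090202-11151056, minus strand) stood at 2.88 to 3.51 RPKM in PAG SNI libraries (median 3.37), against 3.53 to 4.03 RPKM in PAG sham libraries (median 3.76), without overlap (log2 fold change -0.17, SE 0.05, adjusted p = 0.0173). Among the Kcnq genes Kcnq5 and Kcnq3 fell. Kcnq5 averaged 3.9 ± 0.20 RPKM in SNI and 4.35 ± 0.275 RPKM in sham libraries and Kcnq3 averaged 8.41 ± 0.607 RPKM in SNI and 9.31 ± 0.469 RPKM in sham libraries (log2 fold changes -0.14 and -0.14). Of 2 sodium-activated genes Kcnt1 rose, with 20.7 ± 1.59 RPKM in SNI and 16.3 ± 1.18 RPKM in sham libraries (log2 fold change 0.34, SE 0.056, adjusted p = 5.34e-04). Kcne1l rose by 0.19 on the log2 scale. Kcnn3 did not pass in PAG, with 4.58 ± 0.899 RPKM in SNI and 4.67 ± 0.304 RPKM in sham libraries (adjusted p = 0.773).

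Some of the smaller changes in PAG stood near the threshold. Of the 12 fits that each left out 1 library, Kcnq3 missed it in 9 (log2 fold change -0.17 to -0.11), Kcnq5 in 6 (-0.16 to -0.11), Kcnh7 in 3 (-0.17 to -0.13) and Kcna4 in 1 (-0.20 to -0.14). In 1 model of all 36 libraries, which takes the spread from all regions, 12 channel genes rose and 0 fell. No share of all genes stands beside that count. In the same model the 7 genes that had fallen kept their fold changes at limma adjusted p = 0.0865 to 0.581. Kcnc4, Kcnk12 and Kcnt1 also missed the threshold there (adjusted p = 0.302, 0.0655 and 0.0507). The count of channel genes that fell was 3 without library 28 of PAG sham and 4 without library 26 of PAG sham, and otherwise 5 to 9.

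**Figure D3:**
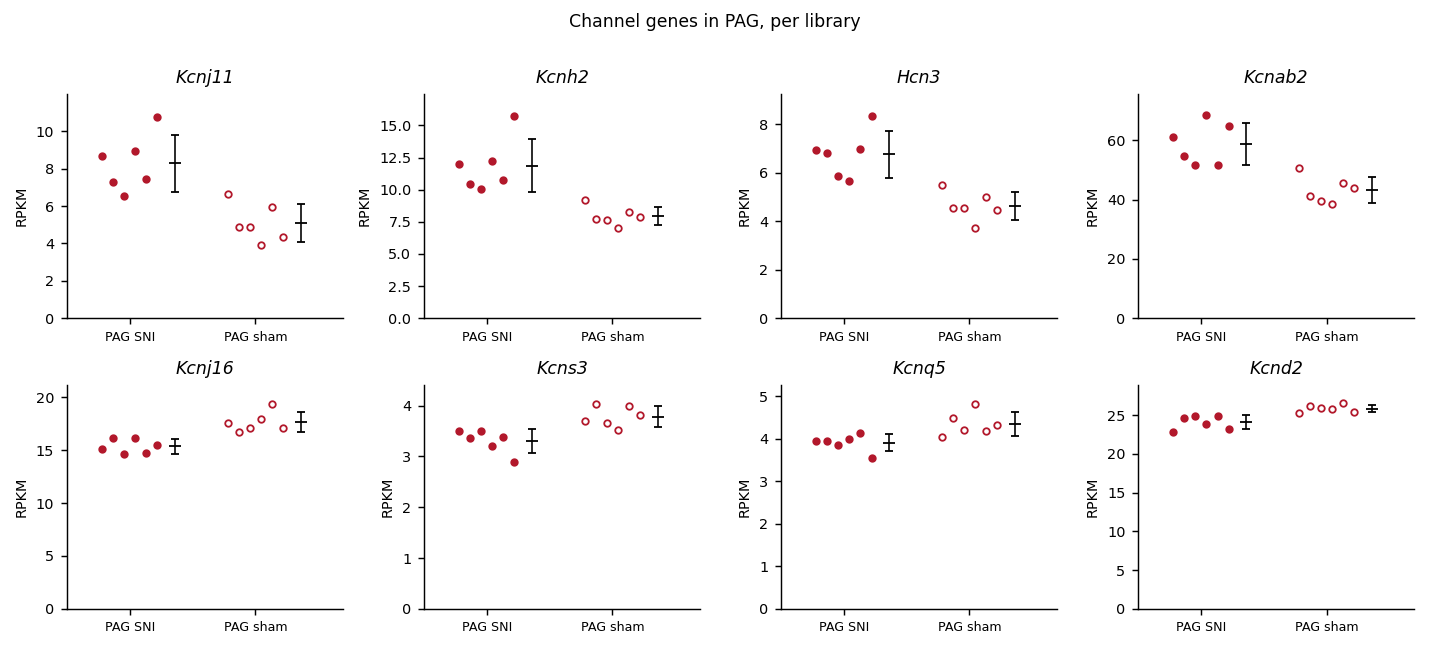
RPKM per library in PAG for Kcnj11, Kcnh2, Hcn3 and Kcnab2, which rose, and for Kcnj16, Kcns3, Kcnq5 and Kcnd2, which fell, with SNI libraries filled and to the left of sham libraries (open), and the mean and SD of each group of 6 as a bar. The risen genes moved by more than the fallen ones, as for Hcn3 with 6.76 RPKM in SNI and 4.63 RPKM in sham and Kcnd2 with 24.1 RPKM in SNI and 25.9 RPKM in sham.

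**Figure D4:**
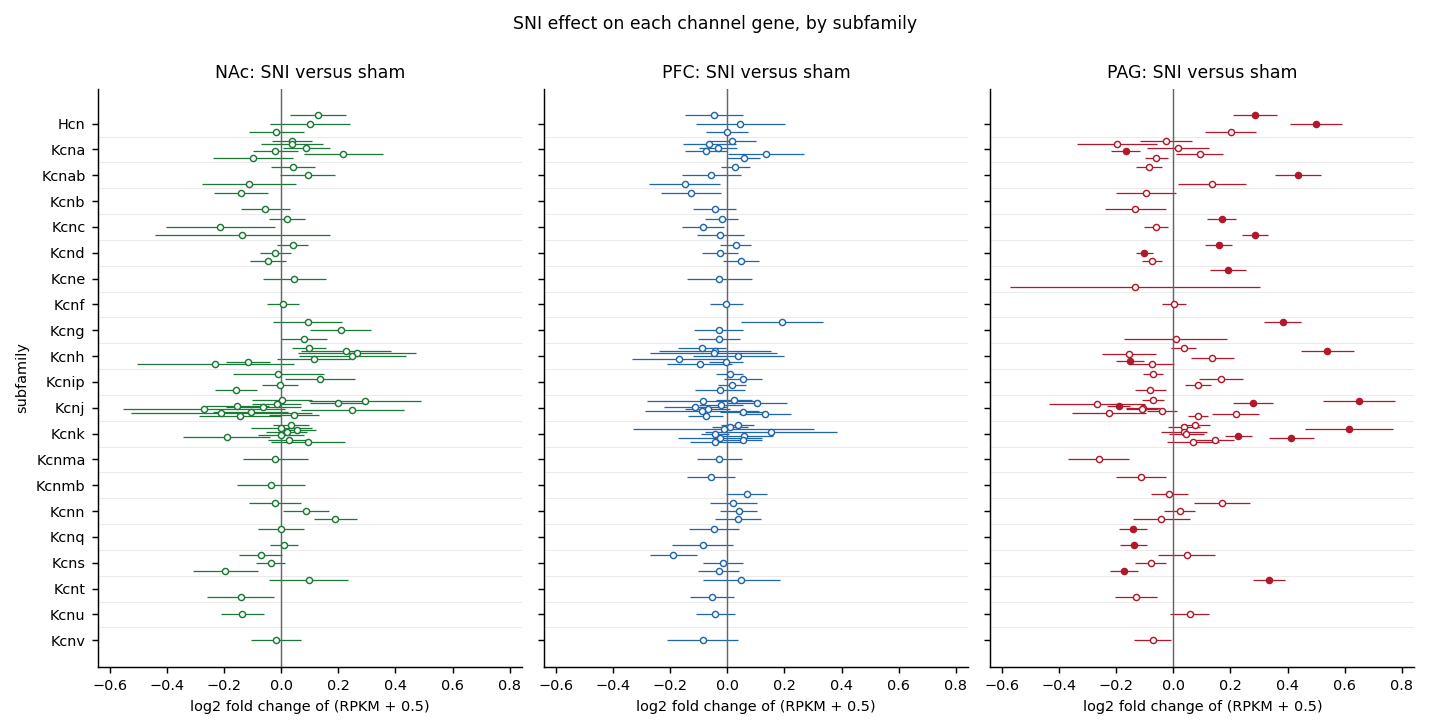
Log2 fold change of SNI over sham, with its standard error, for 70 of the 75 channel genes tested in each of NAc, PFC and PAG; filled symbols mark an adjusted p under 0.05. In NAc and PFC 0 of the 70 drawn are filled, and in PAG 22 are.

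The PAG changes followed the base composition of the transcripts. The longest transcripts of the 16 genes that rose had 53.8 to 69.4% G and C (median 57.9%), and those of the 7 that fell had 39.6 to 47.7% (median 44.4%). The ranges did not overlap. The same order held at the third base of codons in the coding sequences, of which the signature codons printed above are part, with 64.0 to 93.3% in the risen and 47.0 to 63.4% in the fallen genes. Across channel genes the log2 fold change in PAG correlated with transcript GC at r = 0.73 (n = 74 genes, which share their libraries and are no replicates), and across all genes at r = 0.65 (n = 15426). In NAc those values were 0.49 and 0.42, and in PFC 0.16 and 0.08. Genes of other families behaved likewise. Of all genes with at least 55% GC 67.8% rose in PAG, where 13 of 25 channel genes did, and of all genes below 45% GC 31.2% fell, where 5 of 15 channel genes did.

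This trend was also measured library by library, from the same values as the fold changes, so the measure is no separate evidence of it. The GC slope of a library, its log2 deviation from the region mean per 10 percentage points of GC, was 0.0359 to 0.218 in PAG SNI and -0.217 to -0.0246 in PAG sham libraries, with no overlap (exact permutation test, two-sided p = 0.00216, adjusted p = 0.00649). In NAc and PFC the slopes of SNI and sham libraries overlapped (exact permutation p = 0.234 and 0.909). Since the slopes divide the PAG groups, surgery and GC slope cannot be told apart there. With the slope as a covariate, 0 channel genes rose and 0 fell in PAG, and 0 of all genes passed. With each library's trend on GC removed by a loess curve, 3 rose and 5 fell. Of all 15592 genes 2046 passed under that curve, 1220 of them higher. The counts are therefore no result about channel genes. The channel genes that rose were Kcnk4 (0.30 on the log2 scale), Kcnt1 (0.19) and Kcnj11 (0.40). Among those that fell were Hcn2 (-0.28), Kcns1 (-0.37), Kcna3 (-0.38) and Kcnj9 (-0.17), so that Hcn2 turned its direction. Kcnt1, Kcnk4 and Kcnj11 passed with and without the curve, but not under the other corrections. With the slope as a covariate they stood at 0.15, -0.099 and -0.21, so that Kcnk4 and Kcnj11 turned their direction. With a coefficient on the slope estimated for each gene in the other 2 regions and removed, 0 rose and 0 fell. Of all genes 20 passed there. Kcnt1, Kcnk4 and Kcnj11 then stood at 0.023, 0.12 and 0.037, and Kcnc4 came nearest (log2 fold change 0.20, limma adjusted p = 0.0512). Hcn3 stood at -0.088, 0.20 and 0.056 under these corrections, and Kcnh2 at -0.079, 0.10 and -0.022.

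**Figure D5:**
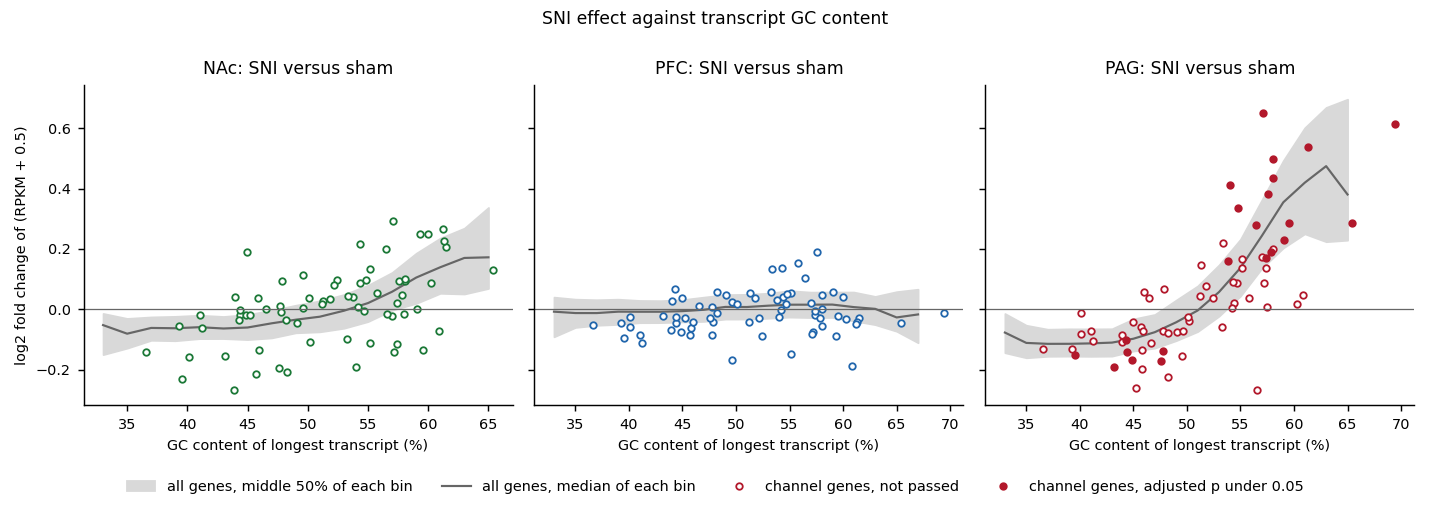
Log2 fold change of SNI over sham against the GC percent of the longest transcript in NAc, PFC and PAG, with a point for each channel gene (filled at an adjusted p under 0.05), and a line and grey band for the median and the interquartile range of all genes in bins of GC. In PAG channel genes and all genes climb together (r = 0.73 and 0.65), while in PFC the line is flat (r = 0.16 and 0.08).

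Marker genes of other cells moved in PAG too. The mean marker score was higher in SNI libraries for microglia (0.28 on the log2 scale, exact permutation adjusted p = 0.00649; 3 of 6 markers rose, summed level 73.1 to 91.1 RPKM in SNI and 61.5 to 68.4 RPKM in sham libraries) and for ependymal cells (0.27, adjusted p = 0.00649; 1 of 3 rose, 49.0 to 55.5 and 42.7 to 50.6 RPKM). It was also higher for midbrain neurons (0.10, adjusted p = 0.013; 2 of 6 rose, 124 to 147 and 134 to 147 RPKM), for oligodendrocyte precursors (0.19, adjusted p = 0.0195; 1 of 3 rose and 1 fell, 24.9 to 28.4 and 24.6 to 28.1 RPKM) and for fibroblasts (0.15, adjusted p = 0.026; 3 of 5 rose, 13.9 to 16.5 and 12.6 to 15 RPKM). The 2 cholinergic markers in the table summed to 1.23 to 15.6 RPKM in SNI and 8.79 to 26.2 RPKM in sham libraries (adjusted p = 0.0519). Lists with a higher score also held genes with a lower SNI mean. These were P2ry12 and Cx3cr1 (microglia), Tmem212 (ependymal), Slc17a6 and Tal1 (midbrain), Pdgfra (precursors), and Dcn and Slc6a13 (fibroblasts). Foxj1 of the ependymal list averaged 11.4 RPKM in SNI and 6.15 RPKM in sham libraries. The GC slope divides the same PAG groups, so scores and slope cannot be told apart. The part of these shifts in the channel genes was not tested. With an oligodendrocyte score as a covariate, 17 channel genes rose and 5 fell, while 5526 of all genes passed, 3356 of them higher. That score was not shown to differ in PAG (0.11 on the log2 scale, exact permutation adjusted p = 0.675). The fit therefore cannot show the part of the lists that moved. Depth did not separate the groups (34.8 ± 5.20 M reads in PAG SNI and 37.9 ± 3.67 M in PAG sham libraries, exact permutation p = 0.275).

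Whether the effect of SNI differed between regions was tested in a model of all 36 libraries. Of 83 channel genes 0 passed an adjusted p under 0.05 for PAG minus NAc, 0 for PAG minus PFC and 0 for NAc minus PFC, where 0.0417%, 0.0417% and 0% of all genes did. At an unadjusted p under 0.05 stood 4, 8 and 0 channel genes, against 8.99%, 17.2% and 1.27% of all genes, and voom called 0 in each. The smallest p-values belonged to Kcnk4 for PAG minus NAc, a difference of 0.60 on the log2 scale (adjusted p = 0.454), and to Kcnab2 for PAG minus PFC, a difference of 0.49 (adjusted p = 0.216). With array weights, which count uneven libraries for less, 12 of 83 channel genes passed for PAG minus PFC, against 20.2% of all genes. Among them were Kcnab2 (a difference of 0.51 on the log2 scale, adjusted p = 0.00644), Kcnh2 (0.61, adjusted p = 0.0149), Kcnj11 (0.69, adjusted p = 0.0154) and Hcn3 (0.50, adjusted p = 0.0166). With those weights 0 passed for PAG minus NAc and 0 for NAc minus PFC, against 0.0179% and 0% of all genes. A difference between PAG and PFC thus depended on the weighting of libraries, and none between PAG and NAc was shown.

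A list of 26 genes whose proteins bind, place or regulate these channels was set beside them. In NAc and in PFC 0 of 25 tested passed the SNI test with limma, and 0 of them stood at an unadjusted p under 0.05 in either region. In PAG 5 of 24 rose and 7 fell (50%, against 35.2% of all genes, of which 21.5% rose and 13.7% fell). The GC slope divides these PAG groups, and its part in the partner genes was not tested. Those of smallest p were Cntn2, which gathers Kcna channels beside the nodes of myelinated axons, Cntnap1, of the junction between node and those channels, Gnb5, a G-protein beta subunit, and its partner Rgs7. Cntn2 averaged 32.9 ± 2.85 RPKM in SNI and 26.3 ± 1.27 RPKM in sham libraries (0.32 on the log2 scale). Cntnap1 averaged 61.7 ± 4.56 RPKM in SNI and 50.9 ± 2.49 RPKM in sham libraries. Gnb5 averaged 50.4 ± 2.73 RPKM in SNI and 42.6 ± 2.39 RPKM in sham libraries. Gnb5 rose while Rgs7 fell, Rgs7 with 27.9 ± 1.96 RPKM in SNI and 32.9 ± 1.03 RPKM in sham libraries. Between sham regions, Nedd4l, a ubiquitin ligase of Kcnq and other channels, was higher in NAc and in PFC than in PAG (1.78 and 1.14 on the log2 scale). In all, 0, 4 and 3 of 25 partner genes passed between NAc and PFC, NAc and PAG, and PFC and PAG, against 6.8%, 13% and 15% of all genes.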

How the data were processed

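Polyadenylated RNA of 3 brain regions was sequenced in 36 libraries, and the authors deposited RPKM values with gene lengths in 1 table. The submitters' processing notes name TopHat2, HTSeq and the mouse build mm10; versions, roles and settings were not given in the sources used here. Depth was recovered from the deposited RPKM: times length and depth, 100% of values came out whole within 0.001, with 27.6 to 64.9 M reads per library. Pairs of libraries within a group (90) differed beyond sampling noise, with a chi-square per degree of freedom of at least 3.89, so none was a copy of another. Coordinates, GC content and coding sequences came from GENCODE M21 on the same build, which held 97.9% of the gene identifiers.

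The comparisons used limma 3.58.1 in R 4.3.3 on log2(RPKM + 0.5), with a mean-variance trend and Benjamini-Hochberg adjustment over all genes tested, two-sided, at 0.05. This scale understates fold changes of low genes. SNI comparisons used the 12 libraries of a region and the genes averaging 0.5 RPKM or more in them. Region comparisons (2-fold or more) and differences of SNI effects used 1 model of 36 libraries and genes reaching that mean in at least 1 group. Library measures were compared by exact permutation. The fits were also tested on simulated data.

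The text names Kcnn3, Hcn3 and Kcnd2, the gene with the highest mean of each subfamily, the 12 largest changes per SNI comparison and direction or, with none past the threshold, the 4 of smallest p, the 6 largest per region comparison and direction, and up to 4 partner genes per comparison; other names are said to be chosen later or complete a count. The channel genes and all lists were chosen with earlier results of these data known. Some genes that the naming rule reaches, and 1 sequence, are not reported here. Alternatives were pseudocounts of 0.1 and 1, no filter or 2 RPKM, median-of-ratios and quantile scaling, voom on recovered reads, array weights, corrections for GC, cell-type scores as covariates, 1 model of all libraries, other thresholds and leaving out each library.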

Additional observations from a re-analysis of the deposited data

Results flagged for a closer look

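In 468 groups of 6 libraries (78 channel genes in each of the 6 groups), a library was sought whose gap to its nearest neighbour took a share of the whole range of its group above Dixon's critical value for 6 values. Chance gives about 1 in 20 such groups, and 35 were found (7.48%), in genes that share their libraries. Each value is set against the range of the other 5 libraries of its group. Library 7 of NAc SNI held 6.37 RPKM of Kcnh7 against 1.65 to 2.83, 15.8 RPKM of Kcnj3 against 3.91 to 7.9, and 12.3 RPKM of Kcnc2 against 5.19 to 7.2. It also held 16.1 RPKM of Kcna6 against 8.48 to 11.3, 30.2 RPKM of Kcnma1 against 18.9 to 22.9, and 32.8 RPKM of Kcnab1 against 38.9 to 42, and it had the highest Slc17a7 of its group. Library 12 of NAc SNI held 2.19 RPKM of Kcnj8 against 1.27 to 1.58. Library 5 of NAc sham held 1.34 RPKM of Kcnj8 against 1.47 to 1.55 and 3.55 RPKM of Kcnip1 against 5.93 to 7.33. Library 1 of NAc sham held 27.9 RPKM of Kcnq5 against 23.2 to 24.8. Library 19 of PFC SNI held 3.68 RPKM of Kcns3 against 2.68 to 3.04, 4.69 RPKM of Kcnk3 against 6.65 to 7.53, and 3.62 RPKM of Kcnip1 against 3.08 to 3.25. Library 20 of PFC SNI held 1.96 RPKM of Kcnmb2 against 1.25 to 1.47 and 11.9 RPKM of Kcnk2 against 10.03 to 10.7. Library 13 of PFC sham held 31.5 RPKM of Kcnv1 against 21.2 to 23.8, 0.532 RPKM of Kcne4 against 0.352 to 0.413, and 40.4 RPKM of Kcnip3 against 36.7 to 37.9. Library 31 of PAG SNI held 1.48 RPKM of Kcne2 against 0.118 to 0.349 and 0.993 RPKM of Kcnj13 against 0.0441 to 0.205. Library 27 of PAG sham held 3.41 RPKM of Kcne2 against 0.111 to 0.193 and 2.94 RPKM of Kcnj13 against 0.022 to 0.127, so that both genes stood apart together in 1 library of each PAG group. Library 32 of PAG SNI held 0.675 RPKM of Kcne4 against 0.33 to 0.446. Library 33 of PAG SNI held 24.9 RPKM of Kcna2 against 44.7 to 53.6. Library 34 of PAG SNI held 20.5 RPKM of Kcnab3 against 11.2 to 14.7 and 24.8 RPKM of Kcnc2 against 21.3 to 22.6. Library 36 of PAG SNI held 1.54 RPKM of Kcnk12 against 0.434 to 0.778, 2.34 RPKM of Kcnj14 against 1.17 to 1.53, and 3.98 RPKM of Kcnn2 against 3.14 to 3.42, and it had the highest GC slope of its group, 0.218. Library 25 of PAG sham held 0.428 RPKM of Kcnh3 against 0.196 to 0.232, 14.2 RPKM of Kcnj9 against 12.7 to 13.2, and 4.56 RPKM of Kcnf1 against 4.05 to 4.19. Library 26 of PAG sham held 1.79 RPKM of Kcnh6 against 1.32 to 1.46. Library 28 of PAG sham held 2.69 RPKM of Kcnj12 against 3.15 to 3.41, and it had the lowest GC slope of its group, -0.217. Library 30 of PAG sham held 1.45 RPKM of Kcns1 against 0.813 to 1.04. Other libraries named here also had the lowest GC slope of their group. They were 7 of NAc SNI (-0.200), 1 of NAc sham (-0.185), 19 of PFC SNI (-0.241), 13 of PFC sham (-0.262) and 33 of PAG SNI (0.0359). Library 25 of PAG sham had the highest of its group (-0.0246). The remaining ones stood at neither end. The part of the GC slope in these values was not tested.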

How the results depend on the processing

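No paired analysis was possible because the groups share no replicate numbers. Of the counts of channel genes under all alternatives, 379 values stayed within 1.5 times the reported count and 16 did not. Many of the 379 come from leaving out 1 library, at times of a region outside the comparison, or are counts of 0. The tally is therefore no measure of stability. In PAG, 16 genes rose and 7 fell; these counts became 7 and 0 with an unadjusted p and a fold of at least 1.3, 14 and 13 with quantile scaling, 0 and 0 with the GC slope as covariate, 3 and 5 with the loess trend on GC removed, 0 and 0 with coefficients from the other 2 regions, and 12 and 0 in 1 model of all libraries. Leaving out each library gave 14 to 19 and 3 to 9. Of all genes in PAG, 6940 passed with quantile scaling, 0 with the GC slope as covariate, 2046 with the loess trend removed and 20 with coefficients. No share of all genes stands beside the other alternative counts in PAG, so they are no result about channel genes. Between sham regions, 69, 66 and 69 genes passed with no minimum fold, and leaving out each library gave 20 to 25, 32 to 36 and 33 to 34. These counts too have no share of all genes beside them and are no result about channel genes. The difference of SNI effects between PAG and PFC gave 12 genes with array weights and 0 to 1 when a library was left out, the 1 being without library 13 of PFC sham; the other differences, and SNI in NAc and PFC, stayed at 0 when a library was left out. Estimates changed sign for genes in PAG with the GC slope as covariate. No gene passed there, and the slope divides the groups, so that fit cannot settle a direction. The log2 fold changes were -0.088 for Hcn3, -0.21 for Kcnj11, -0.36 for Kcnk12, -0.079 for Kcnh2 and -0.022 for Kcnab2. They were -0.099 for Kcnk4, -0.080 for Hcn2, -0.11 for Kcnj12, 0.043 for Kcna4 and 0.082 for Kcnq5. With the loess trend removed they were 0.044 for Kcnn3, -0.033 for Kcnk12, -0.28 for Hcn2 and -0.086 for Kcnc4, and with coefficients from the other regions -0.17 for Kcnk12, -0.022 for Kcnh2, 0.19 for Kcnh7, 0.023 for Kcnq3 and 0.012 for Kcnq5. With an oligodendrocyte covariate Kcnn3 in PAG stood at 0.069, and leaving out a library gave -0.098 to 0.034. In NAc, Kcnd2 stood at 0.013 with median-of-ratios scaling, 0.0014 with the GC covariate, 0.041 with the loess trend removed, 0.025 with coefficients, and -0.055 to 0.014 when a library was left out, and Hcn3 at -0.062 with the GC covariate and -0.074 with coefficients. In PFC, array weights gave -0.023 for Kcnn3, -0.0094 for Hcn3 and 0.044 for Kcnd2, and leaving out a library gave -0.0053 to 0.076, -0.058 to 0.14 and -0.054 to 0.020. Except where the construction of an alternative shows it, the cause was not tested. Genes near the floor rest on few reads, such as the 15 to 28 reads of Kcnj4 in a PAG sham library.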
